A study of Mus musculus with 4 samples.

Results

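The genes described here build the machinery that copies DNA in S phase and the switch that commits a cell to it, from the loading of the helicase at replication origins to cyclin E, the E2F factors and the pocket proteins. A list of 55 gene symbols was matched to the gene names of the array, and 52 of them were found among the 31806 gene names measured; Orc1, Orc2 and Orc6, subunits of the origin recognition complex, had no probe under those names. The rule used names and the flag for signal above background, and no difference between arrays, but the list itself was chosen with earlier results of these data known. All 52 genes found by name carried that flag on each of the 4 arrays, so it left none out, and 33 of them had signals above the 75th percentile of every array.

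Mouse embryonic fibroblasts (MEFs) of C57BL/6J mice were grown to their logarithmic phase in DMEM with serum and antibiotics, without treatment, and total RNA of each preparation was hybridised with Cy3 to a single-colour Agilent array. The genotypes given are CycG2-/- (G2KO), CycG2+/+ (its WT), CycG1-/-CycG2-/- (DKO) and CycG1+/+CycG2+/+ (the DKO-matched WT), where CycG1 and CycG2 are the cyclins G1 and G2 encoded by Ccng1 and Ccng2. The MEFs were primary cells from embryos in mid-gestation, and the Ccng1 allele of DKO lacks all coding exons. Each of the 4 groups had 1 array, so no genotype has a spread of its own, and the difference between the arrays labelled WT is the only measure here of how far preparations labelled alike lie apart.

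Before S phase, the origin recognition complex, CDC6 and CDT1 load the MCM2-7 helicase on origins, and geminin blocks further loading once S phase has begun. The kinases CDC7 and CDK2 then activate the helicase together with MCM10 and the GINS complex, and primase, the polymerases, the sliding clamp PCNA and its loader RFC, and the flap enzymes make and join the new strands. Many of these genes are targets of E2F factors, which the pocket proteins RB1 and RBL1 hold in check until cyclin E and CDK2 phosphorylate them.

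Promoters of these genes are shown first because a shared element in them is independent of the signals on the arrays. The windows run from 250 bases before to 50 bases after the annotated start, as given by RefSeq on GRCm38.p6, and a promoter was at hand for 42 of the 52 genes. Letters of E2F sites were searched as the word TTCGCGC, the word TTGGCGC, the word TTCCCGC and the word TTGCCGC on either strand, and matches that overlap, as the palindromic ones do, were counted once. Of the 42 promoters, 27 (64.3%) held such a match, against 9.69% of all 27025 promoters of the same length and 12.7% of the promoters of genes named on the array. At least 2 separate matches were in 11 of the promoters (26.2%), against 1.12% of all promoters. The 4 windows below belong to Mcm6, a helicase subunit with 3 matches, and to E2f2, Cdc25a and Ccne1, genes that differed at least 2-fold between DKO and its WT; capitals mark the E2F letters.
Mcm6 promoter, minus strand, chr1:128359656-128359955: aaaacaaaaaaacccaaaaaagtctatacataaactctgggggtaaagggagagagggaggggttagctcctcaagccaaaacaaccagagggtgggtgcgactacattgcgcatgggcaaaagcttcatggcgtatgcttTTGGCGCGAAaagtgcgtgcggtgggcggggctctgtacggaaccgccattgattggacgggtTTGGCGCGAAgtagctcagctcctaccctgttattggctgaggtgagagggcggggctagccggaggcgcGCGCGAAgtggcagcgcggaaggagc
E2f2 promoter, plus strand, chr4:136172024-136172323: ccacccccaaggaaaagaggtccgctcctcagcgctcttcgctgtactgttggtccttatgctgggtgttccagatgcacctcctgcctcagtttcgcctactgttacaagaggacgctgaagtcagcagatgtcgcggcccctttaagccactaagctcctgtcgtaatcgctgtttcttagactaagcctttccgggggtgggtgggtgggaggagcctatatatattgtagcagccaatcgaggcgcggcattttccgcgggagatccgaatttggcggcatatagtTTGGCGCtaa
Cdc25a promoter, plus strand, chr9:109875329-109875628: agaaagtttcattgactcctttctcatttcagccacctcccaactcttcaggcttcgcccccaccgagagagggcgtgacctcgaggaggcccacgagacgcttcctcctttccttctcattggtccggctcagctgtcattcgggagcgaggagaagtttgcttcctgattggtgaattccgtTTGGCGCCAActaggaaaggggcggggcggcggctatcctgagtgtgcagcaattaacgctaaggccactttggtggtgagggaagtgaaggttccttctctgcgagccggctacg
Ccne1 promoter, minus strand, chr7:38107441-38107740: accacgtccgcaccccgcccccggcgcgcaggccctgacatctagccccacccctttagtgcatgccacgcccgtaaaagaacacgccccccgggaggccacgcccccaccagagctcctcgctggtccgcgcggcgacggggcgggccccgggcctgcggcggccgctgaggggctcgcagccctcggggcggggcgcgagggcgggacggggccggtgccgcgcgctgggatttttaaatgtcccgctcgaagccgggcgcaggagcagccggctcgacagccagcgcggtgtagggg
In Mcm6 the matches begin at positions -109, -46 and 24 relative to the start, and the 2 upstream ones read as an E2F match on both strands. Cdc25a has 1 palindromic match, which begins at -66, and E2f2 has 1 match that begins at 40. The Ccne1 window holds none of these letters, nor does that of Tk1. Sites with other letters or outside the window were not searched, so a window without a match does not show that a gene lacks an E2F site.

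Over the 27 promoters there were 42 matches, whose median position was -16, and 31 of them began at -100 or later. Pola1 held 4 matches, Cdk2 held 3 like Mcm6, and Cdt1, Mcm3, Mcm5, Mcm7, Rfc3, Chaf1a, Chaf1b and E2f3 held more than 1 each. A CCAAT box (CCAAT on either strand), the element of NF-Y, was in 24 of the 42 promoters (57.1%), against 37.9% of all promoters. The cell cycle homology region, searched as TTTGAA on either strand and known from promoters of G2 and M phase genes, was in 6 (14.3%), against 18.1% of all promoters. Promoters of a list of mitotic genes showed the opposite order, with E2F letters in 3 of 21 (14.3%) and the cell cycle homology region in 16 of 21 (76.2%). These shares describe letters in a window and do not show that a factor binds there.

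**Figure D1:**
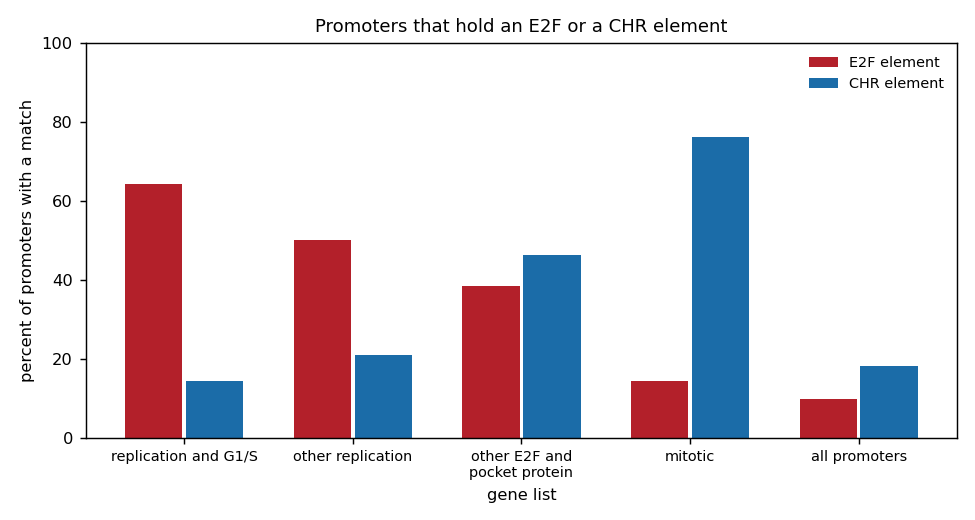
Share of promoters, in percent, that hold E2F letters (red) or the cell cycle homology region, CHR (blue), for 4 gene lists and for all promoters. E2F letters are in 64.3% of the replication and G1/S promoters and 9.69% of all promoters, and the CHR element is in 76.2% of the mitotic promoters.

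The signal of a gene is given here as the signal of its brightest probe divided by the 75th percentile of the array, so that 1 is the level of that percentile. Probes differ in brightness for reasons other than RNA, and values are compared between arrays and not between genes. The error model of the scanning software gave each signal of these genes an error of 10 to 13.6%, which is 0.20 on the log2 scale for a typical ratio of 2 arrays and does not include the difference between preparations. Between 65.0 and 72.2% of the probes were well above background per array, and no spot was saturated.

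Ccng1 and Ccng2 were examined first. Ccng1 gave 9.45 on the array that carries the WT label in the G2KO comparison, 1.98 on the array labelled G2KO and 1.66 on the DKO-matched WT array, and on the DKO array it was not well above background, at least 228-fold lower than its WT. The label of G2KO leaves Ccng1 intact, yet the array labelled G2KO was 4.78-fold lower than the array labelled WT of the same comparison. For Sox2 and Pdgfra, too, the direction within this pair is opposite to that given by the study: by the labels of these files Sox2 was lower and Pdgfra higher on the array labelled G2KO. Whether the labels of this pair are exchanged is not settled here. Ccng2 gave 0.104, 0.0910, 0.0806 and 0.0619 on the same arrays in the same order, so its probe did not set either knockout apart, and whether it lies within the deleted part of the allele is not given in the sources used here. Over 19466 genes the SD of the log2 ratio was 0.54 for the labelled G2KO array against the DKO-matched WT array, compared with 0.88 within the G2KO comparison and 1.02 between the arrays labelled WT. Directions between the arrays of this pair follow the labels below and turn if these are exchanged, and the arrays are called the labelled G2KO and the labelled WT array. With the labels exchanged, a reading added after the values were seen, 7 of the 52 genes would be at least 2-fold higher in G2KO and 0 lower, with a median log2 ratio of 0.60 in place of -0.60.

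Markers of other cell types also differed between arrays. Of the 10 mesothelial markers, all were well above background on the DKO array, with a summed signal of 149, and their sum was 0.552 to 1.57 on the other arrays, where the defining marker Wt1 was not well above background. Neural progenitor markers (5 genes) summed to 30.5 on the labelled WT array and to 1.26 to 2.11 elsewhere. Nes made up 28.0 of that sum, Sox2 (2.37) was well above background on the labelled WT array only, and Fabp7 was also highest there, whereas Pax6 was well above background on the labelled G2KO array only and Sox1 was lowest on the labelled WT array. The fibroblast markers (12 genes) summed to 289 there and to 394 to 496 on the other arrays; Pdgfra, Lum and Fap were not well above background on the labelled WT array. The sums hide lower markers on the labelled WT array. Against it, 7 of the 12 were at least 2-fold higher on the labelled G2KO array, where 8.73% of all genes were. On the DKO-matched WT array 8 were, where 11.5% of all genes were. On either array 0 were at least 2-fold lower. On the labelled WT and the labelled G2KO array Thy1 gave 0.461 and 53.1, Postn 0.566 and 10.9, and Col3a1 1.77 and 24.4. Col1a1, Vim and Fn1 (3 of the 12) were level or lower on the labelled G2KO array. The sums also hide a difference within the DKO comparison. There 11 of the 12 fibroblast markers were lower in DKO than in its WT, where 46.2% of all genes were. At least 2-fold lower were 5 of the 12, where 9.34% of all genes were. These were Postn (186-fold), Pdgfra (176-fold), Thy1 (18.0-fold), Pdgfrb (13.1-fold) and Col3a1 (3.34-fold). Col1a1, Fn1 and Vim were level, within 1.03-fold, Col1a2, Fap and Lum were 1.19- to 1.53-fold lower, and Dcn was 16.6-fold higher. Endothelial, macrophage and keratinocyte markers summed to 0.589 to 4.43 on each array. The part of these differences between preparations in the results below was not tested, and in bulk RNA fewer cells in S phase and less RNA per cell cannot be told apart.

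The main pattern of the 52 genes was an order of the arrays. The labelled WT array held the highest signal for 46 genes (88.5%), against 36.7% of all genes well above background on all arrays, and the labelled G2KO array held it for the other 6, namely Cdc6, Gins4, Pola1, Rfc1, E2f3 and Cdc25a. This count depended on the scaling: it was 45 to 47 under the scalings and background correction tried, but without scaling the labelled WT array was highest for 27 genes, against 16.0% of all genes, and the labelled G2KO array for 25, against 41.5%. No gene was highest on an array of the DKO comparison, except for 1 with quantile normalization. The DKO array was lowest for 35 genes (67.3%, against 31.0% of all genes) and its WT for 17 (32.7%, against 17.6%). For 42 genes (80.8%) both arrays of the G2KO comparison lay above both of the DKO comparison, which held for 17.9% of all genes. The 10 exceptions were Cdt1, Mcm3, E2f3 and Cdk2, where the DKO-matched WT array came among the top 2, and Pola2, Prim2, Rpa1, Rrm1, E2f2 and Rb1, where DKO did. The median signal of the 52 genes was 4.05 on the labelled WT array, 3.17 on the labelled G2KO array, 2.36 on the DKO-matched WT array and 1.71 on the DKO array.

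**Figure D2:**
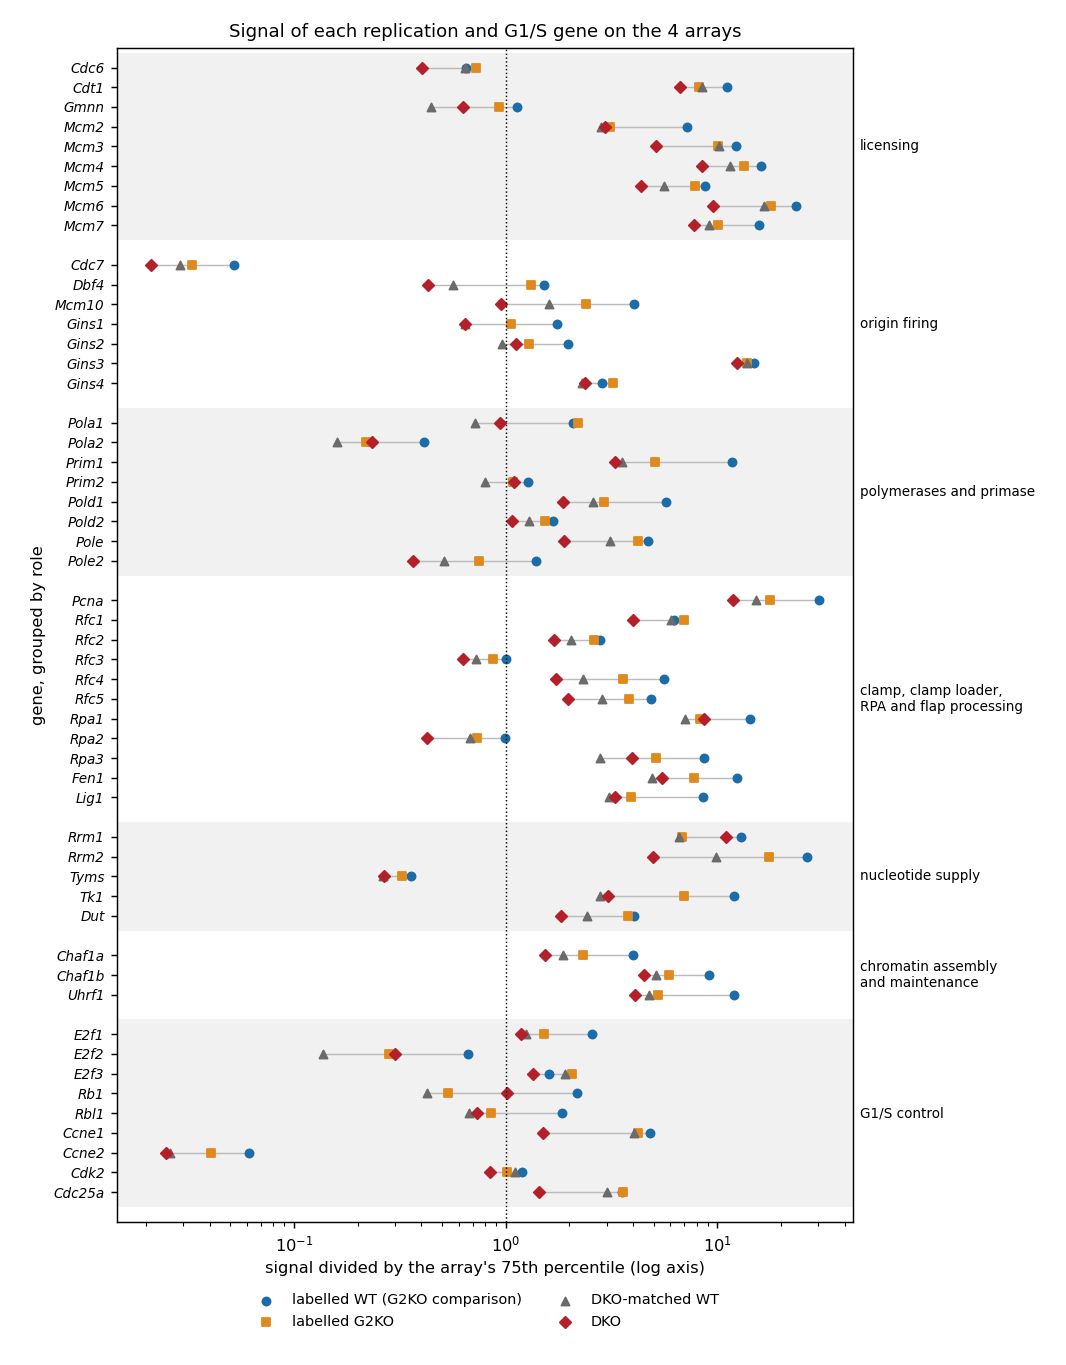
Signal of each of the 52 genes on each array, as a multiple of the 75th percentile of the array (log axis; dotted line at 1), grouped by role; each point is 1 array and the grey line joins the lowest and the highest. The labelled WT array (blue circles) is highest for 46 genes (27 without scaling) and the DKO array (red diamonds) is lowest for 35.

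**Figure D3:**
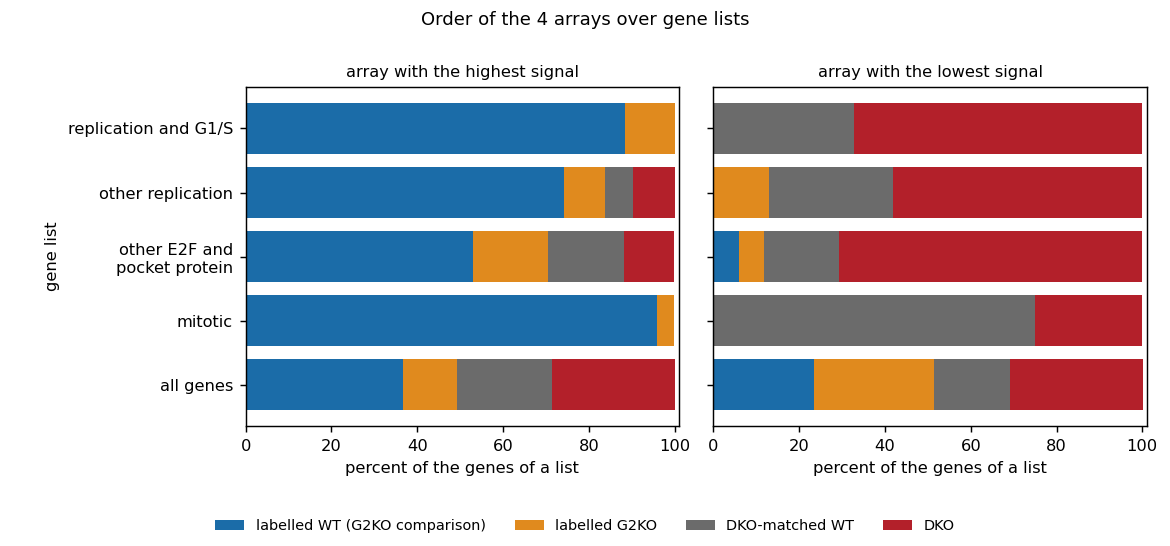
Percent of the genes of each list that had their highest (left) or lowest (right) signal on each of the 4 arrays, for the 52 replication and G1/S genes, 31 other replication genes, 17 other E2F and pocket protein genes, 24 mitotic genes and all 19466 genes. The labelled WT array is highest for 88.5% of the replication and G1/S genes and 36.7% of all genes with this scaling; without scaling it is highest for 27 of the 52 genes and 16.0% of all genes.

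The comparison of DKO with its WT asks how loss of both cyclins G changed expression in growing MEFs. Most of the genes were slightly lower in DKO: 35 of 52 (67.3%) had a log2 ratio below 0 (34 to 38 under other scalings), where 46.2% of all genes did, and their median was -0.26, against 0.01 over all 23547 genes compared. The genes compared include dim ones with a bound. Among the 19466 genes well above background on all arrays, as the 52 were, 51.4% were below 0, with a median of -0.02. Differences of at least 2-fold were few. E2f2 and Rb1 were higher in DKO (2 of 52, 3.85%, where 10.3% of all genes were higher by that much), and Ccne1 and Cdc25a were lower (3.85%, where 9.34% of all genes were), so the share past 2-fold was below the background in both directions. Rrm2 and Mcm3 came next, at 1.99-fold and 1.98-fold lower. At 1.5-fold, 3 genes were higher and 10 lower (19.2%), while 19.2% and 17.8% of all genes were; at 4-fold none of the 52 was called, while 3.93% and 3.91% of all genes were.

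The comparison of the labelled G2KO array with the labelled WT array is labelled as one of cyclin G2 loss alone. Of the 52 genes, 46 (88.5%) were lower on the labelled G2KO array, where 60.5% of all genes were, with a median log2 ratio of -0.60 against -0.17 over all 22813 genes compared. Without scaling between arrays, which turned the median of all genes to 0.32, the number lower was 27, and 19 genes of small ratio changed sign, among them Mcm3, Mcm4, Mcm5 and Mcm6. No gene was at least 2-fold higher, where 8.73% of all genes were, and 7 genes (13.5%) were at least 2-fold lower, where 8.36% of all genes were. These were Mcm2, Prim1, Lig1, Uhrf1, E2f2, Rb1 and Rbl1; Pold1 followed at 1.98-fold. Without scaling 1 gene, Rb1, remained of the 7, and the other 6 had log2 ratios of -0.62 to -0.75. At 1.5-fold, 27 genes (51.9%) were lower, against 22.3% of all genes, and none was higher, against 15.1%. At 4-fold, Rb1 was lower, while 2.02% of all genes were lower and 3.71% higher.

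The arrays labelled WT differed more from each other in the median of these genes than either knockout array did from its WT. If the labels of the G2KO comparison are exchanged, this pair is a WT and a knockout array. The WT arrays are then the labelled G2KO and the DKO-matched WT array. Their median log2 ratio was 0.32 for the 52 genes and -0.05 over all genes. The SD of the log2 ratio over 19466 genes was 0.54 for that pair. The DKO-matched WT array was lower than the labelled WT array for 51 of the 52 genes (98.1%), all but E2f3, where 54.4% of all genes were lower, with a median log2 ratio of -0.99 against -0.07 over all 22544 genes compared. At least 2-fold lower were 25 genes (48.1%), where 9.74% of all genes were, and none was at least 2-fold higher, where 11.5% were. At 1.5-fold, 35 genes (67.3%) were lower and none higher, against 20.7% and 19.1% of all genes. Tk1, E2f2 and Rb1 were at least 4-fold lower, against 2.71% of all genes, and no gene was that much higher, against 4.55%. The 3 comparisons share arrays, and their values for a gene are not independent.

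**Figure D4:**
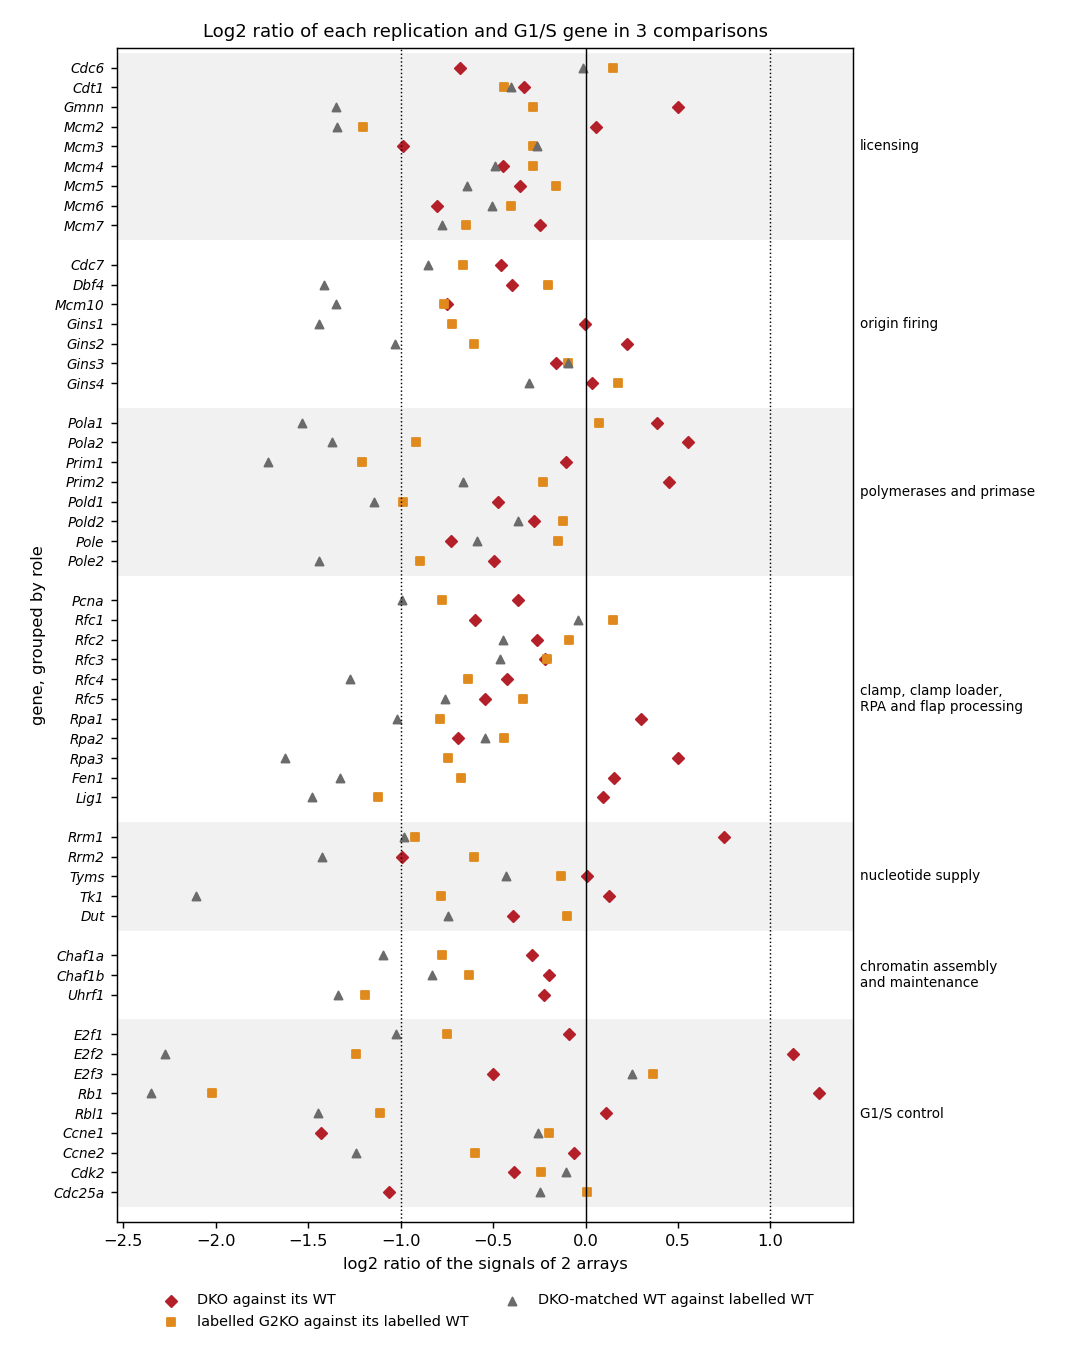
Log2 ratio of each of the 52 genes for DKO against its WT (red diamonds), the labelled G2KO against the labelled WT array (orange squares) and the DKO-matched WT array against the labelled WT array (grey triangles), by role; dotted lines mark 2-fold. The medians are -0.26, -0.60 and -0.99.

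In the sentences on single genes that follow, 4 signals are always in the order labelled WT, labelled G2KO, DKO-matched WT and DKO. The licensing genes, 9 of which were measured, had median log2 ratios of -0.36 in DKO and -0.29 in the labelled G2KO, and of -0.50 between the arrays labelled WT. Mcm2, a subunit of the helicase ring, gave 7.20, 3.13, 2.83 and 2.95. It was high on the labelled WT array alone: the labelled G2KO was 2.30-fold lower (log2 ratio -1.20), and the log2 ratio of DKO to its WT was 0.06. The other subunits of the ring differed less there. Mcm3 gave 12.3, 10.0, 10.2 and 5.15 and so stood apart on the DKO array, 1.98-fold below its WT. Mcm6 gave 23.6, 17.9, 16.7 and 9.54, with the DKO array 1.75-fold lower and the others closer together. Mcm4, Mcm5 and Mcm7 were lower in DKO by 1.36-, 1.28- and 1.19-fold and in the labelled G2KO by 1.22-, 1.12- and 1.56-fold.

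Cdc6 and Cdt1 encode the loaders of the helicase. Cdc6 gave 0.650, 0.722, 0.643 and 0.402, with DKO 1.60-fold lower than its WT and the other arrays near each other, and its second probe gave the same direction in DKO (log2 ratios of -0.68 and -0.77). Cdt1 was lower by 1.26-fold in DKO and by 1.36-fold in the labelled G2KO. Gmnn encodes geminin, the inhibitor of CDT1. It gave 1.13, 0.930, 0.445 and 0.629, so that it was 1.41-fold higher in DKO than in its WT, the direction opposite to the MCM genes other than Mcm2, while both DKO comparison arrays lay below both others.

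The origin firing genes (7 measured) had medians of -0.16 in DKO, -0.60 in the labelled G2KO and -1.03 between the arrays labelled WT, and no member reached 2-fold in a knockout comparison. Mcm10, which helps to activate the helicase, gave 4.06, 2.39, 1.60 and 0.949. It was lower at each step of this order, by 1.70-fold within the G2KO comparison and 1.68-fold within the DKO comparison. Dbf4, the regulatory subunit of the CDC7 kinase, gave 1.51, 1.31, 0.567 and 0.430, and the comparisons differed far more from each other (2.67-fold between the arrays labelled WT) than the knockouts from their WT (1.32-fold in DKO and 1.15-fold in the labelled G2KO). Cdc7 itself was dim, at 0.0523, 0.0331, 0.0289 and 0.0211, and its other probe gave a log2 ratio of 0.08 in DKO in place of -0.46, so that its direction there depended on the probe.

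GINS is a complex of 4 subunits that joins the helicase when origins fire. Gins1 gave 1.74, 1.06, 0.642 and 0.640, with DKO and its WT alike within the error of the signals. Gins2 gave 1.96, 1.29, 0.963 and 1.12, 1.17-fold higher in DKO than in its WT. Gins3, at 14.9, 13.9, 13.9 and 12.4, was the steadiest of the 52 genes, with a range of 0.26 on the log2 scale over the 4 arrays. Gins4 ranged over 0.48 and was highest on the labelled G2KO array. The subunits of GINS thus did not move in parallel: Gins1 and Gins2 separated the arrays labelled WT by more than 2-fold, and Gins3 and Gins4 by 1.07- and 1.24-fold.

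Among polymerases and primase (8 genes) the medians were -0.19 in DKO, -0.56 in the labelled G2KO and -1.26 between the arrays labelled WT. Prim1, the catalytic subunit of primase, gave 11.7, 5.06, 3.55 and 3.31. It was 2.31-fold lower in the labelled G2KO (log2 ratio -1.21) and 1.08-fold lower in DKO, and the labelled WT array stood above the other 3. Prim2, the other subunit of primase, gave smaller and partly opposite differences, 1.17-fold lower in the labelled G2KO and 1.36-fold higher in DKO. Pola1 and Pola2, subunits of the polymerase that extends the primer, differed in the labelled G2KO. Pola1 gave 2.08, 2.19, 0.720 and 0.943, so the arrays fell into the pairs of the comparisons, with DKO 1.31-fold above its WT. Pola2 gave 0.412, 0.218, 0.159 and 0.234 and was 1.89-fold lower in the labelled G2KO but 1.47-fold higher in DKO.

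Polymerases delta and epsilon copy the lagging and the leading strand. Pold1, the catalytic subunit of delta, gave 5.75, 2.90, 2.60 and 1.87 and was 1.98-fold lower in the labelled G2KO and 1.39-fold lower in DKO, whereas Pold2 was lower by 1.09- and 1.22-fold. Pole2 gave 1.40, 0.750, 0.513 and 0.364, lower by 1.86-fold in the labelled G2KO and by 1.41-fold in DKO. Pole, the catalytic subunit of epsilon, was lower mainly in DKO (1.66-fold, against 1.11-fold in the labelled G2KO). All 4 delta and epsilon subunits were thus lower on the DKO array than on its WT, and on the labelled G2KO than on the labelled WT array, the last of which turns if the labels are exchanged and turned for Pold2 and Pole without scaling, while 3 of the 4 genes of primase and polymerase alpha were higher in DKO than in its WT. In the labelled G2KO the differences of Pold2 (1.09-fold) and Pole (1.11-fold) were within the error of the signals.

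The clamp, clamp loader, RPA and flap processing genes (11 measured) had medians of -0.27 in DKO, -0.64 in the labelled G2KO and -0.995 between the arrays labelled WT. Pcna, the sliding clamp, gave 30.4, 17.7, 15.2 and 11.8, with the labelled WT array well above the rest; the labelled G2KO was 1.71-fold and DKO 1.29-fold lower than its WT. Of the clamp loader genes, Rfc4 had the widest range over the 4 arrays, at 5.59, 3.59, 2.31 and 1.72, with log2 ratios of -0.64 in the labelled G2KO and -0.42 in DKO. Rfc1, the large subunit, was 1.52-fold lower in DKO and 1.11-fold higher in the labelled G2KO. Rfc2, Rfc3 and Rfc5 were lower by 1.16- to 1.46-fold in DKO and by 1.06- to 1.27-fold in the labelled G2KO.

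RPA, which coats single strands, has 3 subunits that did not behave alike in DKO. Rpa1 gave 14.3, 8.30, 7.07 and 8.70 and was 1.23-fold higher in DKO; Rpa3 gave 8.63, 5.15, 2.79 and 3.95 and was 1.41-fold higher, while Rpa2 was 1.61-fold lower. In the labelled G2KO all 3 were lower, by 1.72-, 1.67- and 1.36-fold for Rpa1, Rpa3 and Rpa2, although Rpa2 turned higher without scaling. Lig1, the ligase that joins Okazaki fragments, gave 8.53, 3.92, 3.06 and 3.28 and was 2.18-fold lower in the labelled G2KO (log2 ratio -1.12). Fen1, the flap nuclease that acts before it, gave 12.3, 7.73, 4.91 and 5.47, 1.59-fold lower in the labelled G2KO. In DKO, Lig1 and Fen1 were within 1.11-fold of the WT.

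For the 5 genes of nucleotide supply the medians were 0.01 in DKO, -0.60 in the labelled G2KO and -0.98 between the arrays labelled WT. The genes of ribonucleotide reductase moved in opposite directions in DKO. Rrm1, the large subunit, gave 13.0, 6.84, 6.57 and 11.0 and was 1.68-fold higher in DKO than in its WT. Rrm2, the small subunit that limits the enzyme in S phase, gave 26.7, 17.5, 9.91 and 4.98 and was 1.99-fold lower in DKO (log2 ratio -0.99). In the labelled G2KO both were lower, by 1.90- and 1.52-fold. Tk1, the thymidine kinase of S phase, gave 12.0, 6.99, 2.79 and 3.04, a difference of 4.31-fold between the arrays labelled WT and of 1.09-fold between DKO and its WT. Tyms was dim and nearly level, at 0.356, 0.325, 0.265 and 0.266, and Dut was 1.31-fold lower in DKO and 1.07-fold lower in the labelled G2KO.

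Chaf1a and Chaf1b, subunits of the factor that places histones behind the fork, and Uhrf1, which passes DNA methylation to the new strand, were lower in DKO than in its WT and lower on the labelled G2KO than on the labelled WT array, which turns if the labels are exchanged. Uhrf1 gave 12.0, 5.26, 4.75 and 4.07 and was 2.28-fold lower in the labelled G2KO and 1.17-fold lower in DKO; its second probe gave log2 ratios of -1.45 and -0.06. Chaf1a gave 3.99, 2.33, 1.87 and 1.53. Chaf1b was lower by 1.55- and 1.15-fold in the labelled G2KO and in DKO. In each of these 3 genes the labelled WT array was highest and DKO lowest.

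In mm9 coordinates the probe of Rb1 lies at chr14:73595408-73595467, that of E2f2 at chr4:135750562-135750621, that of Ccne1 at chr7:38882937-38882960 and that of Cdc25a at chr9:109796331-109796390. The G1/S control genes (9 measured), to which these belong, held all 4 genes past 2-fold in DKO and 3 of the 7 in the labelled G2KO. In DKO, 2 of the 9 were higher and 2 lower, where 10.3% and 9.34% of all genes were. In the labelled G2KO, 3 of the 9 were lower, where 8.36% of all genes were. The difference between roles was not tested. Rb1, the retinoblastoma protein that restrains E2F, gave 2.17, 0.535, 0.425 and 1.02. It was 2.40-fold higher in DKO than in its WT (log2 ratio 1.27) and 4.05-fold lower in the labelled G2KO than in the labelled WT (log2 ratio -2.02), and the arrays labelled WT lay 5.11-fold apart, so that the DKO signal fell between them. Its 10 spots per array varied by an SD of 0.06 to 0.09 on the log2 scale. E2f2, an activating E2F factor, followed the same order with 0.665, 0.281, 0.138 and 0.300: it was 2.18-fold higher in DKO (log2 ratio 1.12), 2.37-fold lower in the labelled G2KO (log2 ratio -1.24), and 4.83-fold apart between the arrays labelled WT. Against the labelled WT array in place of its own WT, DKO was lower in both genes, with log2 ratios of -1.09 for Rb1 and -1.15 for E2f2. Rbl1, a pocket protein of the same family, gave 1.84, 0.850, 0.674 and 0.729 and was 2.16-fold lower in the labelled G2KO; in DKO its probes disagreed in sign (log2 ratios of 0.11 and -0.28).

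Ccne1, the cyclin E that drives CDK2 at the start of S phase, gave 4.83, 4.21, 4.03 and 1.49. The other 3 arrays lay within 1.20-fold of each other and DKO stood apart, 2.70-fold below its WT (log2 ratio -1.43); the second probe gave -1.54. Cdc25a, the phosphatase that activates CDK2, showed the same arrangement with 3.57, 3.58, 3.00 and 1.44, 2.09-fold lower in DKO and level within the G2KO comparison. In both genes the arrays labelled WT differed by no more than 1.20-fold. Ccne2, the other E cyclin, was dim (0.0616, 0.0407, 0.0261 and 0.0250) and gave no difference in DKO beyond the error of the signals. Cdk2 was 1.31-fold lower in DKO and 1.18-fold lower in the labelled G2KO.

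E2f1 and E2f3 are the other activating E2F factors of the list. E2f1 gave 2.55, 1.52, 1.25 and 1.18, 1.68-fold lower in the labelled G2KO and 1.06-fold lower in DKO. E2f3 was the only gene higher on the DKO-matched WT array than on the labelled WT array, by 1.19-fold, though its second probe had the opposite sign (-0.16 against 0.25), and it was 1.41-fold lower in DKO. Over all roles, 11 genes had 2 probes, and in 4 of their 33 comparisons the probes differed in sign. None of these 4 was past 2-fold. Among the 33, Pole in DKO could not differ, because its second probe was dim on both arrays there.

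Crossing the comparisons set the pattern out again with other pairs of arrays. DKO against the labelled WT array gave 33 genes (63.5%) at least 2-fold lower and none higher, against 11.8% and 14.0% of all genes. The labelled G2KO array against the DKO-matched WT array gave 5 genes (9.62%) at least 2-fold higher, against 4.21% of all genes, and none lower, against 4.73%. These 5 were Gmnn, Dbf4, Pola1, Tk1 and E2f2, and Pola1 had the largest difference, a log2 ratio of 1.60. In that pair 49 of the 52 genes were higher on the labelled G2KO array and 3 lower, where 55.5% of all genes were lower. The median was 0.32, against -0.05 over all genes. The direction of the labelled G2KO thus turned with the WT array it was set against. If the labels of the G2KO comparison are exchanged, that pair holds WT arrays only, and the turn then describes no knockout.

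Other genes of the same pathway were read from lists that do not share members with the 52. Of 38 other replication genes, 31 were found by name. Their median log2 ratio was -0.21 in DKO, -0.32 in the labelled G2KO and -0.73 between the arrays labelled WT, each between that of the 52 genes and that of all genes. In DKO, 2 of the 31 were at least 2-fold lower, where 9.34% of all genes were: Shmt1 (log2 ratio -1.35), which feeds folate to thymidylate synthesis, and Tipin (-1.26), a fork protection protein, and none was 2-fold higher; Rnaseh2a (0.91) and Rrm2b (0.80) came highest. In the labelled G2KO, 3 were lower, where 8.36% of all genes were, and none was higher, and the extremes were Dna2 (-1.28), Rnaseh2c (-1.24), Dnmt1 (0.17) and Pold4 (0.27). Of these 31 genes, 23 (74.2%) were highest on the labelled WT array, where 36.7% of all genes were.

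The 17 other E2F and pocket protein genes, all found, had medians of -0.32 in DKO, -0.17 in the labelled G2KO and -0.51 between the arrays labelled WT. Tfdp2, a dimer partner of E2F, was 3.06-fold higher in DKO, and the repressor E2f6 and the MuvB subunit Lin9 were 3.01- and 2.23-fold lower; Lin37 was the next highest at 1.23-fold. In the labelled G2KO, Ccna2, the cyclin A of S phase, was 2.27-fold and E2f8 2.08-fold lower, and Skp2 and Rbl2 were the highest at 1.31-fold each. Ccna2 gave 16.1, 7.08, 1.93 and 1.39, a drop across the comparisons larger than that of any of the 52 genes.

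Mitotic genes (25, all found) showed how the cell cycle genes outside S phase lay on the same arrays. They were further apart between the comparisons than the replication genes: all 25 were at least 2-fold lower on the DKO-matched WT array than on the labelled WT array, where 9.74% of all genes were, with a median log2 ratio of -3.06 against -0.99 for the 52 genes. In DKO against its WT their median was 0.20, of the opposite sign to the -0.26 of the 52 genes. Of the 24 that were well above background on all arrays, 18 were lowest on the DKO-matched WT array, where 17.6% of all genes were. Aurkb (0.99) and Bub1b (0.96), kinases of cytokinesis and of the spindle checkpoint, were the highest in DKO. Aurkb was dim, at 0.0236 in DKO and 0.0119 in its WT. The spindle factor Tpx2 (-1.57) and the kinase Ttk (-0.77) were the lowest. In the labelled G2KO the mitotic median was -0.86, with 9 of 25 at least 2-fold lower, where 8.36% of all genes were, Bub1 (-1.44) and Foxm1 (-1.33) first, and Ttk (0.03) and Ccnb2 (-0.21) highest. These are descriptions of 1 array per group, and the differences between lists were not tested.

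**Figure D5:**
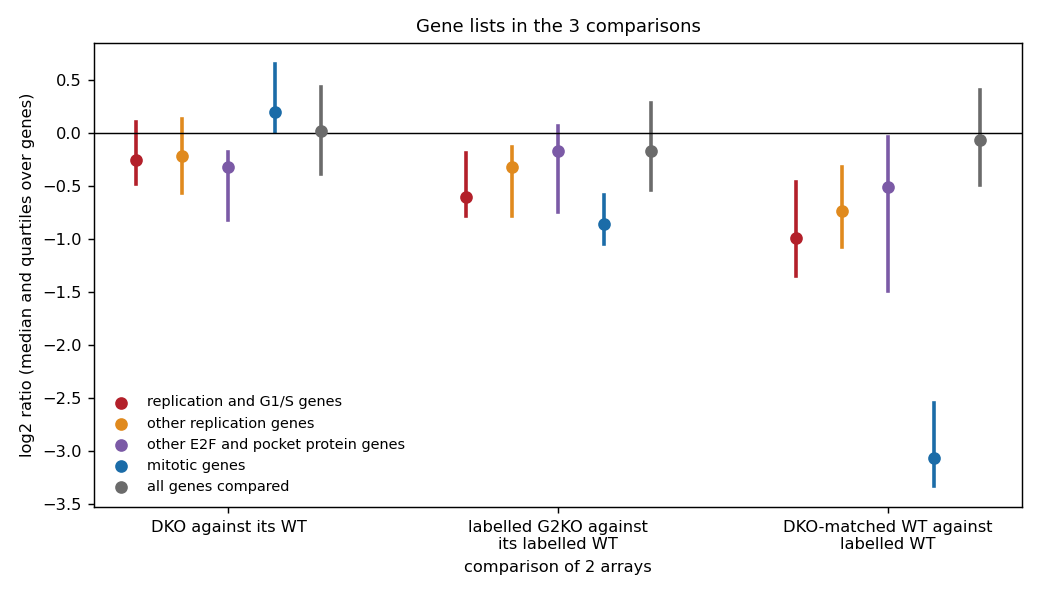
Median (point) and quartiles (line) of the log2 ratio over the genes of 4 lists and over all genes compared, in the 3 comparisons. Between the arrays labelled WT the mitotic genes have a median of -3.06 and the replication and G1/S genes of -0.99, and in DKO against its WT these lists have medians of 0.20 and -0.26.

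Since each knockout had 1 array, a fit in limma with both arrays labelled WT as a single group was the only one with a residual degree of freedom, and it had 1. With the labels of the G2KO comparison exchanged, that group would pool a knockout array with a WT array. With Benjamini-Hochberg adjustment and a limit of 0.05, none of 30344 probes was called in either knockout (0 probes each); at an unadjusted p of 0.05 the fit called 2498 in DKO and 475 in the labelled G2KO, among them Ccne1 in DKO and none of the 52 genes in the labelled G2KO. The signs of the medians held under every scaling tried (-0.24 to -0.34 in DKO, -0.11 to -0.65 in the labelled G2KO and -0.75 to -1.18 between the arrays labelled WT), but not under the choice of WT array, which turned the labelled G2KO to 0.32.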

How the data were processed

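Total RNA of 4 MEF preparations was hybridised to 1 Agilent single-colour array each. The deposited values are signal intensities that the authors extracted with Feature Extraction of Agilent (10.7.3.1 per the file headers, 10.5.1.1 in the submitters' processing notes), corrected for background and spatial trend within each array. The table of processed values held the same intensities (largest log2 difference 0). Probe positions are on mm9. From these values, control spots and outlier spots (107 to 140 per array) were left out, signals were divided by the 75th percentile of the array (1586.21 to 2233.61), log2 was taken, spots were averaged and the brightest probe of a gene name was kept. A gene dim on 1 array of a pair was given a bound there, and a gene dim on both was not compared. Of all gene names, 31806 were measured by 39397 probes.

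Ratios of at least 2-fold were counted beside the same count over all genes, since with 1 array per group no genotype has replicates. A limma fit with both arrays labelled WT as a single group was an alternative. Precision is limited by the number of arrays. The members and lists were chosen with earlier results of these data known. Genes were named by role, with every gene past 2-fold in a comparison, the 3 brightest and 3 dimmest others, and the 2 highest and 2 lowest of each other list in each knockout comparison; further members were added after their values were seen. Promoter letters were searched in RefSeq windows of GRCm38.p6. The supplementary methods describe dye swaps for WT and G2KO MEFs, whereas the labels give 1 colour. Python and R 4.3.3 with limma 3.58.1 were used, and the calculation was tested on simulated data.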

Additional observations from a re-analysis of the deposited data

Results flagged for a closer look

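E2f2 and Rb1 moved in opposite directions in the knockout comparisons, and they were the only genes of the 52 past 2-fold in both. The log2 ratio of E2f2 was 1.12 in DKO against its WT and -1.24 in the array labelled G2KO against the array labelled WT of that comparison. For Rb1 the values were 1.27 and -2.02. These opposite directions rest on the labels of the G2KO comparison, which may be exchanged: turned, its values would be 1.24 for E2f2 and 2.02 for Rb1, the direction of DKO. With 1 array per group the difference between the comparisons was not tested. For both genes the arrays labelled WT lay further apart from each other (log2 ratios of -2.27 and -2.35) than either knockout array from its WT.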

How the results depend on the processing

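Each group had 1 array, so a count moves with the array it is set against, and the difference between the arrays labelled WT limits every comparison. If the labels of the G2KO comparison are exchanged, the arrays labelled WT, and so their mean, include a knockout array. No paired analysis was possible because each group had 1 array. Counts and medians stayed within their limits in 75 recalculations, moved in 24 and reversed in 2, and single genes past 2-fold kept direction and side in 261, fell below it in 39 and reversed in 17. Part of these could not differ. All 52 genes were well above background on every array, so settings of the background flag left their values unchanged. The deposited table repeated the values without scaling. The totals are therefore no measure of stability. For DKO, the 2 genes at least 2-fold higher became 1 with normexp and 0 with a 4-fold threshold, the other WT array or the mean of both; the 2 lower became 4 with quantile normalization, no scaling or the deposited table, 10 at 1.5-fold, 0 at 4-fold, 33 against the other WT array and 11 against the mean, and the median of -0.26 became -1.15 (-1.145) against the other WT array and -0.64 against the mean. For the labelled G2KO, the 7 lower became 1 without scaling, with the deposited table or at 4-fold, 27 at 1.5-fold and 0 against the other WT array or the mean, the 0 higher became 5 against the other WT array, and the median turned to 0.32 (0.324). Between the arrays labelled WT the 25 lower became 3 at 4-fold and were 19 to 29 under other scalings. With the labels of the G2KO comparison exchanged, chosen after seeing the data, 7 were higher and 0 lower, the median was 0.60 (0.602), and Mcm2 (1.20), Prim1 (1.21), Lig1 (1.12), Uhrf1 (1.19), E2f2 (1.24), Rb1 (2.02) and Rbl1 (1.11) reversed. In limma the genes called were 0 and 0, in place of 4 and 7 past 2-fold; it called no probe at all, with 1 residual degree of freedom, and so says nothing about these counts. Without scaling the median of all genes shifted from -0.17 to 0.32 in the labelled G2KO and from -0.07 to 0.14 between the arrays labelled WT, and the all-gene split of higher and lower went from 1992 and 1907 to 3873 and 769 in the labelled G2KO. Relative to all genes the median of the 52 genes was -0.43 in the labelled G2KO, -0.28 with normexp and 0.004 against the mean of both WT arrays. Reversed single genes were E2f2 (-1.15) and Rb1 (-1.09) in DKO against the other WT array and E2f2 against the mean of both (-0.01), and in the labelled G2KO against the other WT array Mcm2 (0.14), Prim1 (0.51), Lig1 (0.36), Uhrf1 (0.15), E2f2 (1.03), Rb1 (0.33) and Rbl1 (0.33). The cause was not tested.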
